A study of Mus musculus with 13 samples.

Results

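Bmi1, Hopx, Lrig1, Tert, Msi1, Msi2, Prom1 and Clu have each been put forward as labels of intestinal stem cells other than, or in addition to, the Lgr5-positive cells of the crypt base. These 8 genes of the 17097 measured were taken by their symbol in the annotation of the array, with 1 probe set per gene, the one that names only that gene and has the highest mean log2 intensity over the 13 arrays. The rule that picks them uses the symbols and no measured value beyond that mean, though earlier results of these data were known when genes and lists were chosen. RNA levels came from short-oligonucleotide expression arrays (Affymetrix HT MG-430 PM), in 4 groups of cells from Lgr5-EGFP-ires-CreERT2 mice of the C57BL/6 strain. In this knock-in, GFP and an inducible Cre are made from the Lgr5 locus, so that every sample, villus included, comes from mice that carry the reporter allele. The sources used here name no drug or injury and give no age.

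The groups were GFP_High, small intestinal cells sorted for bright GFP (4 arrays, the Lgr5 stem cells of the study), GFP_Low, small intestinal cells sorted for dim GFP (3 arrays, their close descendants), Villus, villus epithelial cells (3 arrays), and hair follicle, cells of the skin sorted for dim GFP (3 arrays). The series description states that a sort combined 3 mice, so an array averages over animals. GFP was the sole gate named for the sorted cells. The paper's array methods count villus among the RNA taken after FACS, but name no gate for villus cells. In bulk RNA of this kind, fewer cells of a type and less RNA per cell cannot be told apart.

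In the small intestine, cells at the base of the crypt divide and renew the epithelium, and their Lgr5 receptor amplifies Wnt signalling. A reserve or "+4" stem cell, named for its position just above the Paneth cells, has been proposed to divide slowly and to refill the crypt after damage, and Bmi1, Hopx, Lrig1 and Tert became known as its labels through reporter and lineage-tracing mice. Msi1 and Prom1 were proposed as markers of crypt stem and progenitor cells, Msi2 is the paralogue of Msi1, and Clu marks cells that appear in the regenerating crypt. In the hair follicle the bulge and the region under it hold stem cells, of which part express Lgr5 and, elsewhere in the follicle, Lrig1.

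The promoters of Lrig1 and Hopx are shown because the study set DNA methylation beside expression, and because Lrig1 differed by 30.9-fold between GFP_High and Villus while Hopx has a pair of annotated starts. Methylation was not analysed here. Each run is the 250 bases before a RefSeq start (GRCm38.p6, minus strand, 5′ to 3′), with every CG dinucleotide in capitals.
Lrig1, chr6:94700146-94700395: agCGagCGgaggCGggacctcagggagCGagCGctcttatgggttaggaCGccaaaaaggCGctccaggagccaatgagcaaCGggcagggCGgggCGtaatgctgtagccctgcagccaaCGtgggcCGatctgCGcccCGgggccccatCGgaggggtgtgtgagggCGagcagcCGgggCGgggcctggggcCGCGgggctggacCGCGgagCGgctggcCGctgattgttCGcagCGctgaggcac
Hopx, upstream start, chr5:77115124-77115373: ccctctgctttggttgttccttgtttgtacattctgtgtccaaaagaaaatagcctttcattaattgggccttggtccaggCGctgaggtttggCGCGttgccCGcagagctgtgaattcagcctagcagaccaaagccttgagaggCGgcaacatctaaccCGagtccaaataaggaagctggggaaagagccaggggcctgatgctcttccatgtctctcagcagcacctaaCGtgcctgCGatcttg
Hopx, downstream start, chr5:77095268-77095517: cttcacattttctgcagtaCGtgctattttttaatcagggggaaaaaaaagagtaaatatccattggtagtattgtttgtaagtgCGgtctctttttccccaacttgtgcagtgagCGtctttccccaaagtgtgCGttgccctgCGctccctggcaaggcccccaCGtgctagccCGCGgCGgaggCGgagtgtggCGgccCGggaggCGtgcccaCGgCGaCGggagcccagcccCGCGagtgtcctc
The Lrig1 window held 26 CG and the Hopx windows 8 and 18, against a median of 6 over 32851 mouse promoter windows of this length, and 9.59% of those windows held at least as many CG as Lrig1. RefSeq entries were found for 6 of the 8 genes, with 10 starts in all (Msi1 and Clu were not matched). Counts in the others were 29, 29 and 30 for the 3 starts of Msi2, whose windows largely overlap, 21 for Bmi1, 12 for Tert and 9 and 3 for Prom1. The motif CTTTGA, the core to which the Wnt effectors of the TCF family bind, was in 0 of the 10 windows on either strand, and in 13.8% of all windows. So few windows, of which the 3 of Msi2 share most bases, cannot show a difference from that share. A window without these 6 letters says nothing of binding elsewhere in the gene.

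Lgr5 itself, the gene behind the sort, read 532.8 to 793.1 on the GFP_High arrays, 12.6, 66.1 and 14.0 on the GFP_Low arrays, 4.8 to 6.8 in Villus and 478.8 to 687.1 in hair follicle cells. Groups were taken from the sample titles. A separate label field names the opposite Lgr5 level for 3 of the 7 sorted intestinal arrays (GFP_High 2, GFP_Low 2 and GFP_Low 3) and a high level for all hair follicle and villus arrays, and the measured Lgr5 level lay with the titles on the 3 intestinal arrays. On the hair follicle arrays, whose titles name dim GFP, the Lgr5 level overlapped that of GFP_High and so lay with the field. On the villus arrays it lay against the field. With those 3 arrays left out, a choice made after seeing the data, a single GFP_Low array remains, which is then assumed to vary like the other groups. Within groups the arrays correlated at 0.978 to 0.994 over genes. GFP_Low 1 had the lowest upper quartile of intensity, 37.6 against 40.6 to 52.1 on the other arrays.

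Defining markers of other cells moved with the groups. The 6 measured enterocyte markers summed to 1304 to 2299 in GFP_High, 6618 to 9484 in GFP_Low, 47316 to 49278 in Villus and 32.1 to 35.9 in hair follicle cells, where 0 of 6 were above the receptor level. That level, an intensity of 7.55, is the 95th percentile over 86 probe sets of smell, pheromone and bitter taste receptor genes, and stands in for the reading without transcript. Goblet cell markers (6 measured) summed to 1055 to 2335 in GFP_High and 21637 to 24120 in GFP_Low, and enteroendocrine markers (6 measured) to 148 to 286 and 4270 to 5359. The 3 measured Paneth cell markers summed to 711 to 1438 in GFP_High and 5025 to 9240 in GFP_Low, and to 278 to 393 in Villus. Macrophage markers (4 measured) summed to 2184 to 4573 in GFP_High and 7668 to 12707 in GFP_Low, nearly all of it Lyz2, with Adgre1 not above the receptor level in any group. Lyz2 was 2.53-fold higher in GFP_Low (limma, adjusted p = 0.0115), and in a fit with the sort as a block Cd14 was lower there. This sum therefore follows Lyz2 and not the list as a whole. Tuft cell markers (5 measured) summed to 32.8 to 47.2 and 61.9 to 131.5. Mesenchyme markers (6 measured) summed to 31.2 to 45.6 and 118.8 to 208.4, with Vim the one marker above the receptor level in GFP_Low (15.8-fold higher than in GFP_High, adjusted p = 7.68e-05). All of these sums were higher in the GFP_Low than in the GFP_High arrays, without overlap. Lymphocyte markers were above the receptor level in Villus alone as a full list (6 of 6). They summed to 306.0 to 584.2 there, against 34.6 to 49.7 in the other groups. Of the hair follicle genes, 12 of 12 were above that level in hair follicle cells, against 5 to 7 of 12 in the intestinal groups. Their part in the results below was not tested.

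Across the small intestine the 8 genes mostly lay in one order, GFP_High above GFP_Low above Villus. Between GFP_Low and GFP_High, 6 of 8 were lower in GFP_Low and none higher by limma at an adjusted p under 0.05, where 10.4% of all genes were lower and 6.32% higher. From GFP_High to Villus 7 of 8 were lower and none higher, in a comparison in which 26.3% of all genes were lower and 22.6% higher. From GFP_Low to Villus 7 were lower and 1, Clu, was higher, beside 21.3% and 20.8% of all genes. The median log2 difference of the 8 genes was -0.82, -1.52 and -0.99 in these comparisons, and that of all genes -0.04, 0.02 and 0.02. With Msi1 in Villus set to the receptor level, the last median of the 8 was -0.73. Both comparisons with GFP_High use the same 4 arrays.

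Hair follicle cells did not follow that order. Against GFP_High, 2 of the 8 genes (Bmi1 and Clu) were higher and 3 (Lrig1, Msi1 and Prom1) lower, where 19.4% of all genes were higher and 29.1% lower. Against GFP_Low, 5 were higher and 1, Prom1, was lower, beside 21% and 25.2% of all genes. Against Villus, 6 were higher and 1, Prom1 again, was lower, beside 26.9% and 27.4%. Median log2 differences of the 8 genes were -0.26, 0.53 and 1.58 (the last 1.38 at the receptor level for genes below it), and those of all genes -0.06, -0.05 and -0.04.

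**Figure D1:**
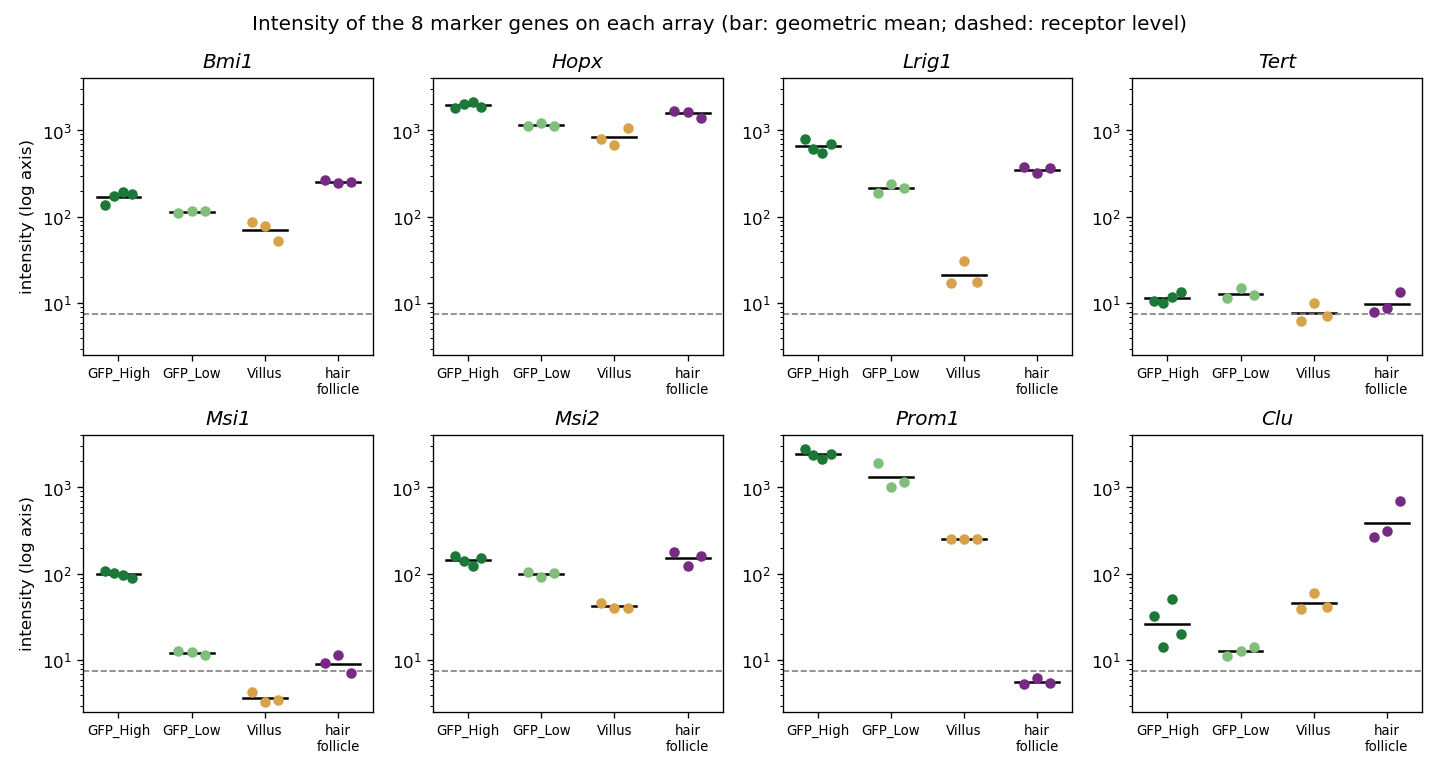
Intensity (log axis) of each of the 8 genes on each array, by group, with the geometric mean as a bar and the receptor level of 7.55 as a dashed line. Lrig1 and Msi1 step down from GFP_High to GFP_Low to Villus, Prom1 is below the receptor level on all 3 hair follicle arrays, and Clu is highest on the hair follicle arrays.

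Bmi1 (Entrez 12151) encodes a subunit of Polycomb repressive complex 1, which ubiquitinates histone H2A and holds genes silent. Its intensity was 136.6, 174.9, 196.5 and 183.2 in GFP_High (172.8 ± 25.7, mean ± SD, n = 4) and 110.9, 117.4 and 117.6 in GFP_Low (115.3 ± 3.81, n = 3). It was 86.5, 78.3 and 52.5 in Villus (72.4 ± 17.7, n = 3) and 268.4, 248.0 and 252.0 in hair follicle cells (256.1 ± 10.8, n = 3). No 2 groups overlapped, with hair follicle cells at the top, then GFP_High, GFP_Low and Villus. The log2 difference was -0.57 (SE 0.17, adjusted p = 0.0311) from GFP_High to GFP_Low and -0.70 (SE 0.18, adjusted p = 0.00528) from GFP_Low to Villus, and hair follicle cells exceeded GFP_High by 0.58 (SE 0.17, adjusted p = 0.00971). The first of these calls was fragile: it was lost when any of GFP_High 2, 3 or 4 or of GFP_Low 1, 2 or 3 was left out (log2 -0.51 to -0.59, adjusted p from 0.0611 to 0.0906) and after quantile normalization (adjusted p = 0.0554). A second Bmi1 probe set gave -0.82 (adjusted p = 0.115) from GFP_High to GFP_Low, -0.07 (adjusted p = 0.903) from GFP_Low to Villus and 0.11 (adjusted p = 0.837) from GFP_High to hair follicle cells.

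Hopx (Entrez 74318) encodes a small homeodomain protein that does not bind DNA itself and works through partners such as serum response factor and histone deacetylases. GFP_High arrays gave 1808.8, 2008.4, 2152.6 and 1868.8 (1959.7 ± 153, n = 4) and GFP_Low arrays 1140.7, 1221.2 and 1121.6 (1161 ± 52.9, n = 3). Villus gave 801.6, 670.3 and 1070.7 (847.5 ± 204, n = 3) and hair follicle cells 1700.1, 1638.7 and 1400.7 (1579.8 ± 158, n = 3). All 4 groups were apart in their single values, GFP_High first and hair follicle cells second, although Villus 3 (1070.7) came close to the lowest GFP_Low array (1121.6). The difference from GFP_High to GFP_Low was -0.75 on the log2 scale (SE 0.15, adjusted p = 0.00314), and that from GFP_High to Villus -1.23 (SE 0.15, adjusted p = 6e-06). Between GFP_Low and Villus the difference was -0.48 (SE 0.16, adjusted p = 0.0247), and it no longer passed without GFP_Low 2 (adjusted p = 0.0744), Villus 1 (0.072) or Villus 2 (0.126). Hair follicle cells differed from GFP_High by -0.31 (95% interval -0.63 to 0.01, adjusted p = 0.103), and the second probe set of Hopx put this at -0.43 (adjusted p = 0.00936). They exceeded GFP_Low by 0.44 (SE 0.16, adjusted p = 0.0347), a call lost without any of GFP_Low 1, 2 or 3 or hair follicle 1 or 2 (adjusted p from 0.0505 to 0.112).

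Lrig1 (Entrez 16206), a transmembrane protein that restrains ErbB receptors, stepped down through the 3 intestinal groups. Its values were 790.4, 613.0, 545.1 and 698.7 in GFP_High (661.8 ± 106, n = 4), 190.1, 239.3 and 218.1 in GFP_Low (215.8 ± 24.7, n = 3) and 17.3, 30.8 and 17.9 in Villus (22.0 ± 7.63, n = 3). Hair follicle cells had 376.8, 319.2 and 365.8 (353.9 ± 30.6, n = 3), between GFP_High and GFP_Low. No groups overlapped, and all 6 comparisons passed. GFP_Low was lower than GFP_High by 3.05-fold (log2 -1.61, SE 0.19, adjusted p = 6.81e-05), and Villus lower than GFP_High by 30.9-fold (log2 -4.95, SE 0.19, adjusted p = 8.5e-11) and than GFP_Low by 10.1-fold (log2 -3.34, SE 0.21, adjusted p = 1.64e-08). Hair follicle cells were at -0.89 from GFP_High (SE 0.19, adjusted p = 0.00139) and at 0.72 from GFP_Low (SE 0.21, adjusted p = 0.0108). The other Lrig1 probe set passed in the same direction in all 6 comparisons, with -1.53 for GFP_Low and -5.07 for Villus against GFP_High.

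Tert (Entrez 21752) encodes the reverse transcriptase of telomerase, and its signal was low throughout. GFP_High arrays read 10.6, 10.2, 11.7 and 13.4 (11.5 ± 1.43, n = 4), GFP_Low 11.6, 15.1 and 12.4 (13.03 ± 1.83, n = 3), Villus 6.3, 10.2 and 7.1 (7.87 ± 2.06, n = 3) and hair follicle cells 8.0, 8.8 and 13.7 (10.2 ± 3.09, n = 3). Every GFP_High and GFP_Low array was above the receptor level of 7.55, and 2 of the 3 villus arrays were not. GFP_Low differed from GFP_High by 0.18 (95% interval -0.26 to 0.62, adjusted p = 0.654). Villus was at -0.57 from GFP_High (log2, SE 0.20, adjusted p = 0.0329) and at -0.75 from GFP_Low (SE 0.22, adjusted p = 0.0123). These calls were lost, the first without GFP_High 3 (adjusted p = 0.061), GFP_High 4 (0.0898), Villus 1 (0.156) or Villus 3 (0.104), and the second without GFP_Low 2 (0.054) or Villus 1 (0.0627). Hair follicle cells did not pass against any group, with log2 differences of -0.21, -0.39 and 0.36 from GFP_High, GFP_Low and Villus and intervals of -0.65 to 0.23, -0.86 to 0.08 and -0.11 to 0.83. Without hair follicle 3 the difference from GFP_Low was -0.63 (adjusted p = 0.0239), and without Villus 2 that from Villus was 0.56 (adjusted p = 0.0474). The array has a single probe set for Tert.

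The Musashi proteins bind RNA and control its translation. Msi1 (Entrez 17690) read 108.3, 102.0, 96.8 and 89.0 in GFP_High (99.0 ± 8.17, n = 4), 12.8, 12.5 and 11.5 in GFP_Low (12.3 ± 0.681, n = 3), 4.3, 3.3 and 3.5 in Villus (3.70 ± 0.529, n = 3) and 9.3, 11.5 and 7.2 in hair follicle cells (9.33 ± 2.15, n = 3). GFP_High stood far above the other groups, and GFP_Low and hair follicle cells met at 11.5. The level in GFP_High was 8.06-fold that in GFP_Low (log2 -3.01 for GFP_Low, SE 0.15, adjusted p = 3.63e-08), 10.8-fold that in hair follicle cells (log2 -3.43, SE 0.15, adjusted p = 2.04e-10) and at least 13.1-fold that in Villus, where the probe set was not above the receptor level (adjusted p = 1.78e-11). Hair follicle cells and GFP_Low differed by -0.42 (SE 0.17, adjusted p = 0.0524), which passed without hair follicle 2 (adjusted p = 0.00805) and without Villus 1 (0.0488). The 3 Msi1 probe sets did not run together. The second gave -1.65 for GFP_Low against GFP_High (adjusted p = 0.00598), and the third, below or near the receptor level in every group, did not pass (adjusted p = 0.916). With the mean of the 3 in place of the brightest, GFP_Low was at -1.54 from GFP_High.

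Msi2 (Entrez 76626) spanned a smaller range. GFP_High gave 160.0, 142.1, 121.9 and 154.2 (144.6 ± 16.8, n = 4), GFP_Low 104.0, 90.9 and 103.1 (99.3 ± 7.32, n = 3), Villus 46.0, 40.8 and 40.8 (42.5 ± 3.002, n = 3) and hair follicle cells 179.0, 123.6 and 160.5 (154.4 ± 28.2, n = 3). The 3 intestinal groups were apart, and hair follicle cells overlapped GFP_High. GFP_Low was at -0.54 from GFP_High (SE 0.14, adjusted p = 0.0193), and this was lost after quantile normalization (adjusted p = 0.116) and without GFP_High 1 (0.0585), GFP_High 4 (0.0529) or GFP_Low 2 (0.0683). Villus was lower than GFP_High by 3.39-fold (log2 -1.76, SE 0.14, adjusted p = 1.09e-07) and than GFP_Low by 2.33-fold (log2 -1.22, SE 0.15, adjusted p = 1.36e-05). Hair follicle cells were at 0.09 from GFP_High (95% interval -0.22 to 0.39, adjusted p = 0.689) and exceeded GFP_Low by 0.62 (SE 0.15, adjusted p = 0.0036). Neither of the other Msi2 probe sets passed for GFP_Low against GFP_High (-0.30 and -0.41, adjusted p = 0.758 and 0.402). Msi1 and Msi2 therefore had different orders of groups, Msi1 with hair follicle cells beside GFP_Low and Msi2 with hair follicle cells beside GFP_High.

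Prom1 (Entrez 19126), or CD133, is a membrane glycoprotein of cell protrusions. Its intensity was 2774.8, 2390.4, 2149.1 and 2448.4 in GFP_High (2441 ± 258, n = 4), 1941.8, 1006.5 and 1149.2 in GFP_Low (1366 ± 504, n = 3), 253.4, 250.3 and 253.4 in Villus (252 ± 1.79, n = 3) and 5.3, 6.2 and 5.4 in hair follicle cells (5.63 ± 0.493, n = 3). The 4 groups did not overlap, and GFP_Low 1 lay nearer to the GFP_High arrays than the other GFP_Low arrays did. GFP_Low was at -0.89 from GFP_High (SE 0.18, adjusted p = 0.00446). Without GFP_Low 1 this was -1.18 (adjusted p = 5.7e-05). With GFP_Low 1 as the only GFP_Low array, that is, without the 3 arrays with the contrary label field, it was -0.33. Villus was lower than GFP_High by 9.63-fold (log2 -3.27, SE 0.18, adjusted p = 2.69e-09) and than GFP_Low by 5.19-fold (log2 -2.38, SE 0.20, adjusted p = 2.7e-07). In hair follicle cells Prom1 was not above the receptor level and was at least 322-fold lower than in GFP_High (adjusted p = 7.98e-14), at least 173-fold lower than in GFP_Low (adjusted p = 5.77e-13) and at least 33.4-fold lower than in Villus (adjusted p = 1.3e-11). The paralogue Prom2 ran the other way: it was not above the receptor level in the intestinal groups and at least 3.35-fold higher in hair follicle cells than in GFP_High (adjusted p = 9.51e-09).

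Clu (Entrez 12759) encodes clusterin, a secreted chaperone. Its arrays spread widely within groups, with 32.7, 14.3, 51.5 and 20.4 in GFP_High (29.7 ± 16.4, n = 4), 11.2, 12.7 and 14.3 in GFP_Low (12.7 ± 1.55, n = 3), 38.8, 59.6 and 41.6 in Villus (46.7 ± 11.3, n = 3) and 268.7, 309.9 and 692.2 in hair follicle cells (423.6 ± 234, n = 3). GFP_High met GFP_Low at 14.3 and overlapped Villus, while hair follicle cells stood apart from all. Hair follicle cells exceeded GFP_High by 14.6-fold (log2 3.87, SE 0.39, adjusted p = 1.15e-06), GFP_Low by 30.5-fold (log2 4.93, SE 0.42, adjusted p = 1.97e-07) and Villus by 8.43-fold (log2 3.08, SE 0.42, adjusted p = 1.71e-05). Villus exceeded GFP_Low by 1.85 (SE 0.42, adjusted p = 0.00221), and both other Clu probe sets passed there too, with bounds of at least 1.41-fold and 2.72-fold since neither was above the receptor level in GFP_Low. GFP_Low was at -1.06 from GFP_High (SE 0.39, adjusted p = 0.0823), but this passed without hair follicle 3 (0.0476). Without GFP_High 2, the lowest GFP_High array for Clu, the difference was -1.36 (adjusted p = 0.0267). With the sort as a block it was the same -1.36 (adjusted p = 0.0121). GFP_High 2 is alone in its sort and has no weight in that fit, so these results are not separate. Villus was at 0.79 from GFP_High (95% interval -0.05 to 1.63, adjusted p = 0.115), which passed without GFP_High 3 (adjusted p = 0.0179) and after quantile normalization (1.11, adjusted p = 0.0208). The probe set used carries the suffix _x_at, by which the maker marks probes that can match other transcripts.

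GFP_High 3 and 2, the highest and the lowest GFP_High arrays for Clu, were also the highest and the lowest in the summed level of 8 immediate early and heat shock genes (15374.3 and 8010.8, with a group median of 12053.6). The same sum was 2706 to 3604 in Villus, 12128 to 13803 in GFP_Low and 41517 to 54060 in hair follicle cells, where hair follicle 3 was highest in both the sum and Clu. Mesenchyme markers, also higher in GFP_Low than in GFP_High as given above, summed to 173.4 to 403.7 in hair follicle cells, and melanocyte markers to 131.6 to 535.3, in both cases highest on hair follicle 2. Without hair follicle 2 the difference of Clu from GFP_High still passed, as it did under every alternative (log2 3.21 to 4.19). The paper's methods lengthened the trypsin step for skin cells in some cases beyond that for crypts, so tissue and handling differ together. The part of stress genes or of handling in the level of Clu was not tested.

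**Figure D2:**
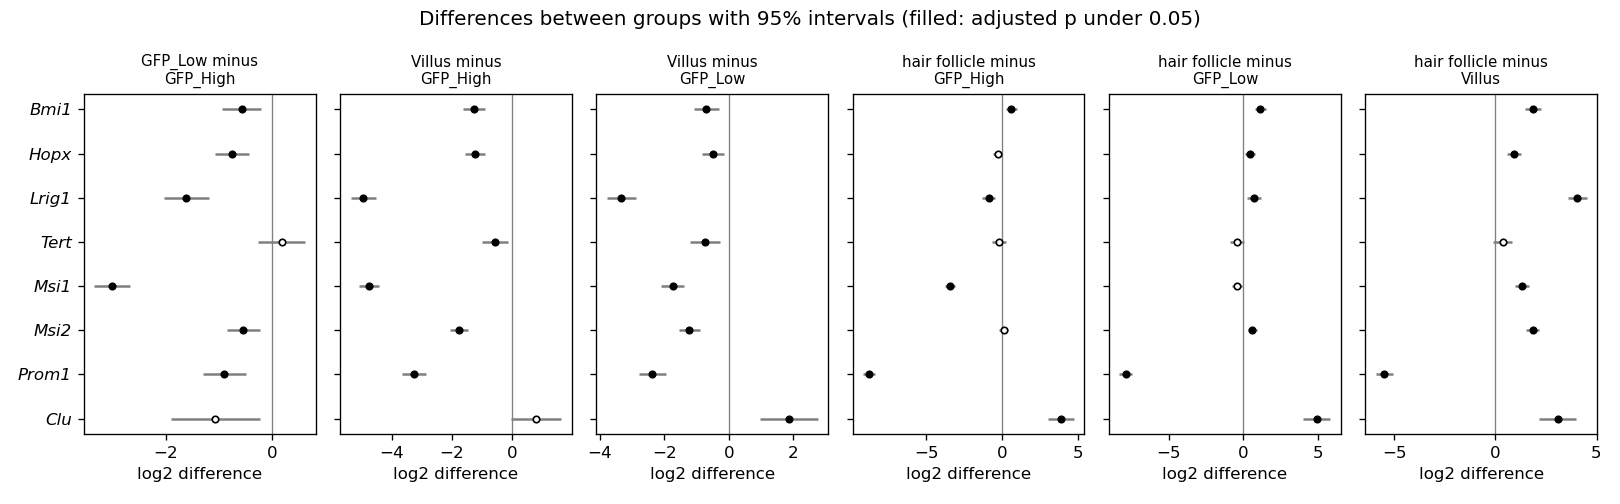
Log2 difference of each gene in the 6 comparisons, with 95% intervals of the limma fit, filled where the adjusted p was under 0.05 (each panel has its own axis). Tert alone lies right of 0 for GFP_Low minus GFP_High, and Prom1 is the one gene with a filled point left of 0 in all 6 panels.

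GFP_High and GFP_Low arrays share a number code in their titles in 3 cases. Each shared code was read here as a shared sort, although the labels do not say what the code stands for. The differences can be read within each sort so defined. In the sort of GFP_High 1 and GFP_Low 1, that of GFP_High 3 and GFP_Low 2, and that of GFP_High 4 and GFP_Low 3, Msi1 differed by -3.08, -2.95 and -2.95 and Hopx by -0.67, -0.82 and -0.74 (log2). These 2 genes had the tightest differences between sorts. Lrig1 differed by -2.06, -1.19 and -1.68, Prom1 by -0.52, -1.09 and -1.09, Msi2 by -0.62, -0.42 and -0.58, and Bmi1 by -0.30, -0.74 and -0.64. Clu was lower in GFP_Low in all 3 sorts as well, by -1.55, -2.02 and -0.51, and Tert was at 0.13, 0.37 and -0.11. So 7 of the 8 genes were lower in GFP_Low in 3 of 3 sorts, and Tert in 1 of 3. The share of all genes lower in 3 of 3 sorts was not counted, so this count has nothing to be set beside. The title of hair follicle 2 carries the same code as that of GFP_High 3, though the tissues differ and the labels name no common sort. Against GFP_High 3, hair follicle 2 had Bmi1 at 0.34, Lrig1 at -0.77 and Clu at 2.59. Prom1 was at least 285-fold lower, being below the receptor level on the hair follicle array.

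**Figure D3:**
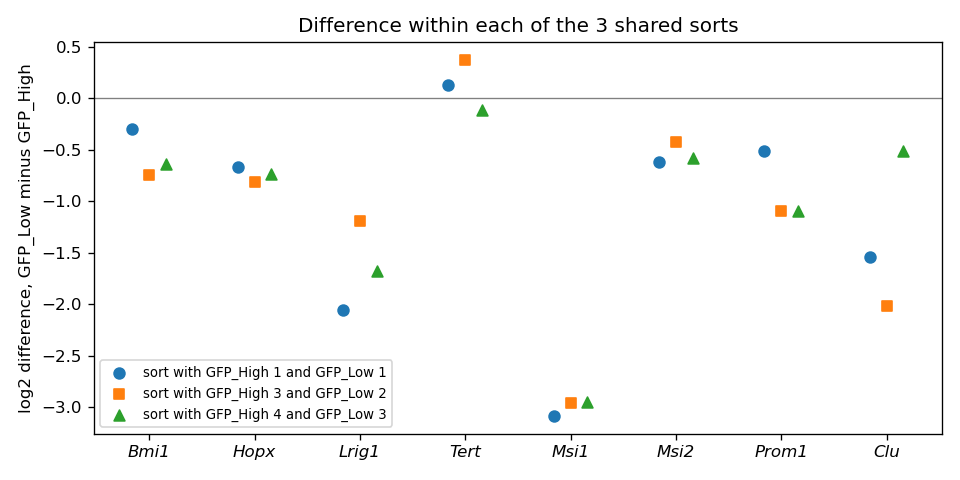
Log2 difference between the GFP_Low and the GFP_High array of each of the 3 shared sorts, as read from the code in the titles (markers), for the 8 genes. Every marker is below 0 except those of Tert for the sorts of GFP_Low 1 (0.13) and GFP_Low 2 (0.37).

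Quantile normalization shifted the balance of calls between GFP_Low and GFP_High. Of all genes called, 37.9% were higher in GFP_Low with the deposited scaling and 49.5% after quantile normalization, when 8.25% of all genes were lower and 4 of the 8 (Hopx, Lrig1, Msi1 and Prom1) passed, all lower. Without GFP_Low 1 the share higher was 53.2%, 6.16% of all genes were lower, and 5 of the 8 passed, all lower. Without the 3 arrays with a contrary label field a single GFP_Low array remains, so sizes are given without calls. For GFP_Low against GFP_High they were -1.82 for Lrig1, -2.93 for Msi1, -0.76 for Hopx, -0.62 for Bmi1 and -0.47 for Msi2. Prom1 was at -0.33, Clu at -1.54 and Tert at -0.03. For Villus against GFP_Low, Bmi1 was at -0.65, Hopx at -0.46 and Tert at -0.59. For hair follicle cells against GFP_Low, Hopx was at 0.46 and Msi2 at 0.55.

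For Bmi1, Hopx, Lrig1, Msi2 and Clu every probe set gave the same sign in all 6 comparisons, though not always a call. In the plot of all probe sets, which draws each as a line over the groups, the second Bmi1 line is flat between GFP_Low and Villus, and the lines of Msi1 cross. The dim Msi1 probe set was lower in hair follicle cells, where it was not above the receptor level, than in Villus (adjusted p = 0.0186), where it read 7.5 to 8.0. The probe set used was at least 1.21-fold higher in hair follicle cells, and was not above the receptor level in Villus. Levels of different probe sets are not comparable with each other.

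**Figure D4:**
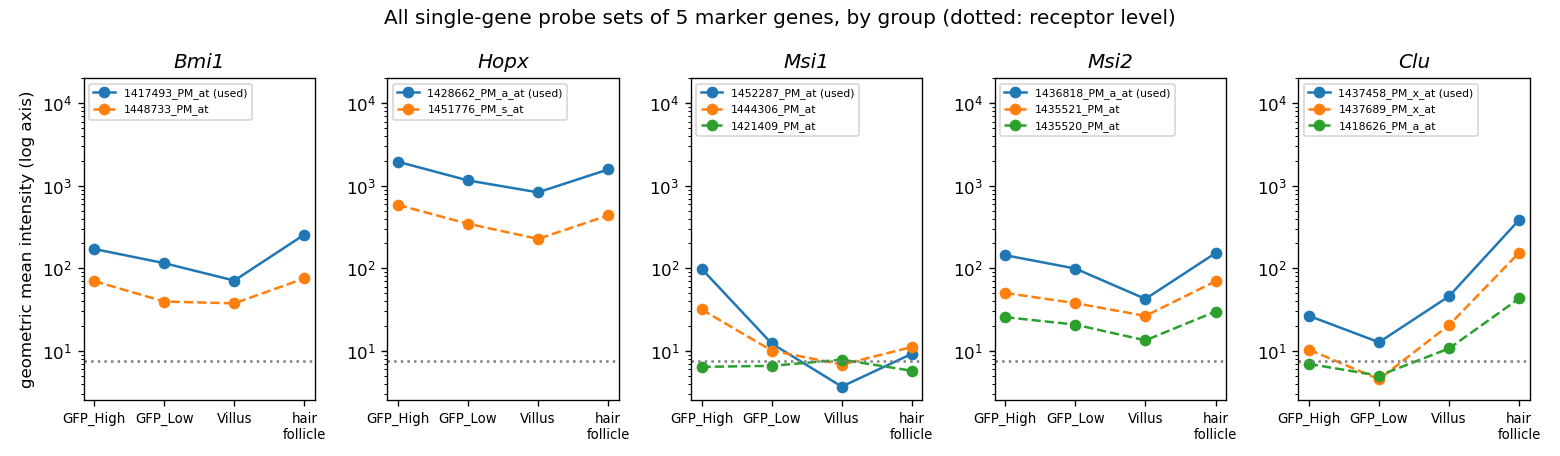
Geometric mean intensity (log axis) by group for every probe set that names only Bmi1, Hopx, Msi1, Msi2 or Clu, with a solid line for the one used and the receptor level dotted. The lines of a gene go up and down together apart from those of Msi1, whose dimmest probe set stays near the receptor level of 7.55 in every group.

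The partners of these genes are given from lists of related genes, drawn up with earlier results of these data known. Of 15 measured genes of Polycomb repressive complex 1 other than Bmi1, 8 were lower in GFP_Low than in GFP_High and none higher (median log2 difference -0.53), where 10.4% of all genes were lower. Cbx6 was at -1.67 (adjusted p = 1.52e-05), Cbx2, a reader of the H3K27 methyl mark, at -1.04 (adjusted p = 0.00237) and the Polyhomeotic gene Phc1 at -1.01 (adjusted p = 0.00159). From GFP_High to Villus 10 of the 15 fell (26.3% of all genes were lower and 22.6% higher), among them Cbx6 (-3.92, adjusted p = 2.14e-10), Kdm2b (-2.28, adjusted p = 1.84e-07) and Pcgf6 (-2.23, adjusted p = 4.36e-09), while Rybp (1.09, adjusted p = 0.00019) and Pcgf5 (0.63, adjusted p = 0.0101) rose. Hair follicle cells had 3 higher and 3 lower than GFP_High (19.4% and 29.1% of all genes), with Rybp at 2.11 (adjusted p = 3.26e-07) and the E3 ligase Rnf2 at 1.28 (adjusted p = 0.000396), and 11 higher than Villus with 1 lower (26.9% and 27.4% of all genes).

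Of 12 measured telomerase and telomere cap genes other than Tert, 6 were lower in GFP_Low than in GFP_High (10.4% of all genes) and 8 lower in Villus (26.3%), with none higher in either. Dkc1, the dyskerin that binds the telomerase RNA and other small RNAs of its class, was at -1.03 in GFP_Low (adjusted p = 0.0242) and 51.2-fold lower in Villus than in GFP_High (log2 -5.68, adjusted p = 8.88e-10). Its partners in the same particles, Gar1 and Nhp2, were 42.1-fold (adjusted p = 4.81e-12) and 32.5-fold (adjusted p = 1.51e-09) lower in Villus. These 3 also serve ribosomal RNA modification. In hair follicle cells 10 of the 12 were lower than in GFP_High (29.1% of all genes) and none higher, among them Tinf2 of the telomere cap (-1.74, adjusted p = 2.45e-06), and the 12 genes summed to 614 to 686 in Villus, 1422 to 2431 in hair follicle cells, 3074 to 3748 in GFP_Low and 4380.0 to 4659.1 in GFP_High.

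Lrig1 acts on ErbB receptors. Among 8 Lrig and ErbB receptor genes, Egfr alone passed for GFP_Low against GFP_High, in the same direction as Lrig1 (-0.78, adjusted p = 0.0146), where 10.4% of all genes were lower. In Villus, Erbb3 (1.29, adjusted p = 1.38e-05), Erbb2 (0.90, adjusted p = 0.000365) and the ErbB feedback inhibitor Errfi1 (1.33, adjusted p = 0.0315) were higher than in GFP_High and Egfr was lower (-0.77, adjusted p = 0.00469). In hair follicle cells Errfi1 (3.14, adjusted p = 6.07e-05), Egfr (2.07, adjusted p = 6.6e-07), Lrig2 (1.59, adjusted p = 6.54e-05) and Lrig3 were higher than in GFP_High, and Erbb3 (-1.02, adjusted p = 0.000135) and Erbb2 (-0.50, adjusted p = 0.0218) lower.

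Of 7 partners or targets of Hopx and the Musashi proteins and the paralogue Prom2, 1 passed for GFP_Low against GFP_High: Cdkn1a, the cell cycle inhibitor p21, was higher in GFP_Low (1.98, adjusted p = 0.00114). Of all genes, 6.32% were higher and 10.4% lower in this comparison. With the sort as a block Hdac2 and Epc1 passed as well, both lower. In Villus Cdkn1a (3.37, adjusted p = 9.74e-07) and Numb (1.79, adjusted p = 6.68e-08), an inhibitor of Notch whose mRNA Msi1 binds, were higher than in GFP_High, and the Hopx partners Hdac2 (-2.77, adjusted p = 6.83e-07) and Srf (-1.74, adjusted p = 3.24e-05) and Epc1 (-0.55, adjusted p = 0.0372) lower. Hair follicle cells had 5 of the 7 higher than GFP_High, and Hdac2 lower, beside 19.4% and 29.1% of all genes.

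Other genes that have been used to label +4 or slowly dividing crypt cells were mostly higher in GFP_Low. Of 14, 9 were higher in GFP_Low than in GFP_High and 2 lower (median 0.96, or 0.81 with genes not above the receptor level set to it), against 6.32% and 10.4% of all genes. The highest were genes that secretory cells also express: Chga (31.9-fold, adjusted p = 7.12e-08) and Chgb (20.9-fold, adjusted p = 3.63e-08) of enteroendocrine granules, and Atoh1 (4.70-fold, adjusted p = 4.9e-06), the secretory lineage factor. The goblet and enteroendocrine sums above were also higher in GFP_Low, and Chga and Chgb belong to that enteroendocrine list. Sox9 (-1.62, adjusted p = 6.57e-05) and Mex3a (-1.39, adjusted p = 0.000459) were the 2 lower genes. In Villus 7 of the 14 were higher than in GFP_High and 5 lower (22.6% and 26.3% of all genes), the latter with Sox9 at -4.84 (adjusted p = 1.08e-10) and Neurog3 at least 6.18-fold lower (adjusted p = 3.96e-07). Hair follicle cells, where 19.4% of all genes were higher and 29.1% lower, had 5 higher, with Krt15, a keratin of the bulge, 165-fold higher than in GFP_High (adjusted p = 1.23e-10), and 5 lower, with Krt19 277-fold lower (adjusted p = 7.98e-14).

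Regeneration genes reported with Clu split within the intestine and rose together in hair follicle cells. Of 13 measured, 3 were higher and 4 lower in GFP_Low than in GFP_High (6.32% and 10.4% of all genes). S100a6 was at least 10.1-fold higher (adjusted p = 0.000198), Anxa2 8.09-fold (adjusted p = 2.38e-07) and Anxa5 2.63-fold (adjusted p = 8.76e-05), while the Hippo effector Wwtr1 was 4.18-fold lower (adjusted p = 0.000136). In Villus 7 were higher and 4 lower than in GFP_High (22.6% and 26.3% of all genes), with Anxa2 28.8-fold higher (adjusted p = 1.38e-10) and Ccn1, a target of Hippo effectors, 12.5-fold lower (adjusted p = 2.29e-08). In hair follicle cells 11 of 13 were higher than in GFP_High (19.4% of all genes) and none lower (median 3.41), with S100a6 at least 477-fold (adjusted p = 1.11e-09), Ccn2 at least 447-fold (adjusted p = 6.68e-13) and Anxa1 331-fold (adjusted p = 8.34e-13) higher. The 8 measured immediate early and heat shock genes were all higher there too (median 2.73). Tissue and length of the trypsin step differ together here as well, and the part of handling was not tested.

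Crypt base columnar genes, the set around Lgr5 and so around the sort itself, are given beside them. All 14 measured were lower in GFP_Low than in GFP_High, where 10.4% of all genes were (median -2.12, against -0.82 for the 8), Lgr5 by 28.3-fold (adjusted p = 3.88e-06; 48.3-fold without GFP_Low 2, whose Lgr5 level of 66.1 was above the other GFP_Low arrays), Tnfrsf19 by 14.3-fold (adjusted p = 3.87e-07) and Ascl2 by 11.2-fold (adjusted p = 5.21e-07). In Villus 13 of the 14 were lower than in GFP_High, beside 26.3% of all genes (median -4.32, against -1.52). Their differences in GFP_Low ran from -1.21 (Olfm4) to -4.82 (Lgr5). Msi1 (-3.01) and Lrig1 (-1.61) lay inside that range, and Bmi1 (-0.57), Hopx (-0.75), Msi2 (-0.54) and Prom1 (-0.89) outside it. Beside 29.1% of all genes, hair follicle cells had 12 of 14 lower than in GFP_High, and Lgr5 and Ephb3 did not pass. Of 7 proliferation genes none passed in limma for GFP_Low against GFP_High (median -0.71), and 1, Pcna (-0.35), had an unadjusted p under 0.05 (0.0092). Their sums were nevertheless apart, 6489.8 to 7223.3 in GFP_High and 4645.6 to 5079.9 in GFP_Low. With the sort as a block 4 of the 7 passed as lower (Ccna2, Top2a, Mcm2 and Mcm5) and all 7 had an unadjusted p under 0.05. The share of all genes called under the block is not given here, so this count has nothing to be set beside. All 7 were lower in Villus and in hair follicle cells than in GFP_High.

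**Figure D5:**
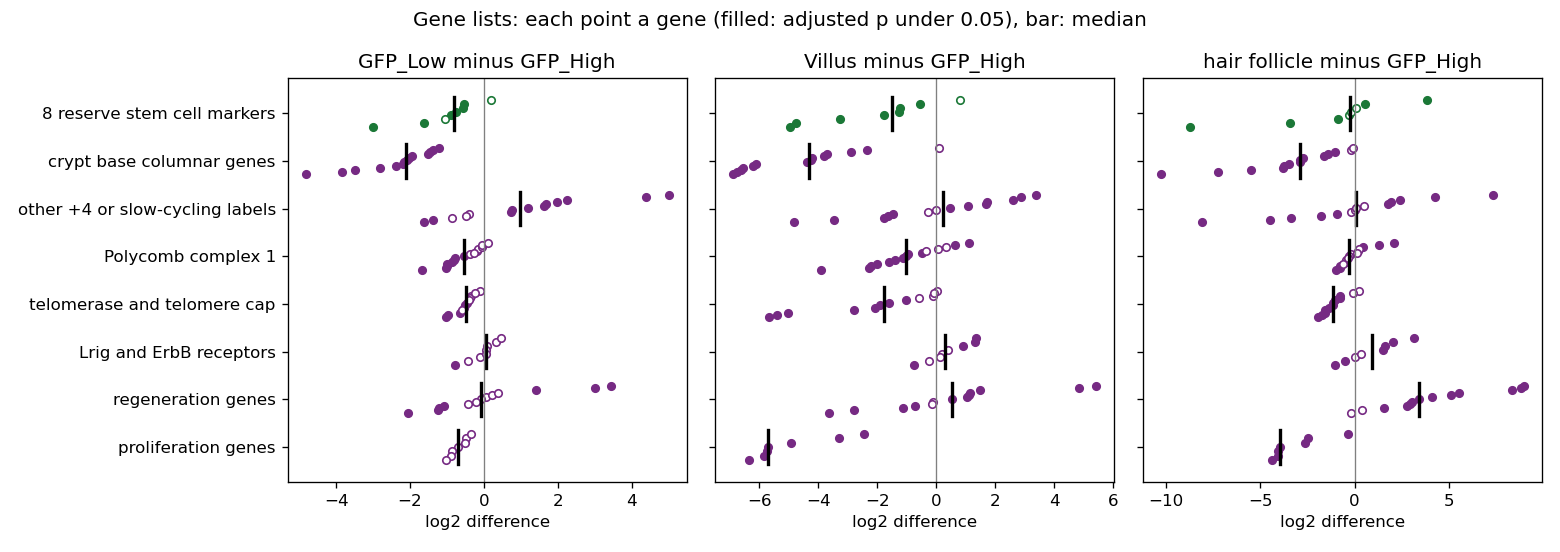
Log2 difference of each gene of 8 lists (rows) in GFP_Low, Villus and hair follicle cells against GFP_High, filled where the adjusted p was under 0.05, with the median of a list as a bar. Medians of the 8 markers and of the crypt base columnar genes are -0.82 and -2.12 in GFP_Low and -1.52 and -4.32 in Villus, while that of the regeneration genes is 3.41 in hair follicle cells.

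Over the 13 arrays, which share the 4 groups, the log2 levels of the 8 genes ran together to different degrees. Pearson's r was 0.95 between Lrig1 and Msi2, 0.88 between Bmi1 and Msi2 and 0.87 between Lrig1 and Hopx, and -0.91 between Prom1 and Clu. On the hair follicle arrays Prom1 was lowest and Clu highest. The genes with the most similar pattern among all 17097 were Yeats2 (0.995), Ipo7 (0.994) and Tex10 (0.988) for Lrig1, and Kcnk1 (0.995), Ccl28 (0.994) and Aldh1b1 (0.994) for Prom1. For Msi2 they were Nedd4 (0.992), Ctdp1 (0.990) and Cttnbp2nl (0.983), and for Msi1 Hunk (0.983), Repin1 (0.982) and Ppp1r26 (0.982). Bmi1 ran with Slc25a4 (0.979), Morf4l1 (0.973) and Ahctf1 (0.971), Clu with Ptpn23 (0.972), Btg1 (0.969) and Ehd3 (0.967), and Hopx with Ell3 (0.959), Zfp523 (0.954) and Bbs7 (0.951). For Tert the highest values, Npy6r (0.858), Neurod2 (0.845) and Edn2 (0.836), were below those of the other 7 genes, and Npy6r was not above the receptor level in any group, so that its value sets Tert beside background readings. With 4 groups behind 13 arrays such values describe a shared order of groups.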

How the data were processed

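RNA of 13 samples was hybridised to Affymetrix HT MG-430 PM arrays. The deposited values are intensities on a linear scale, which the authors computed with the RMA-sketch method of Affymetrix Power Tools (the sources do not state its version). The step corrects background, normalizes between arrays and summarises probes. Here log2 was taken with no further normalization. Of 45141 probe sets, 28898 name 1 gene, 551 name several and 15692 are unnamed in the annotation used and were left out. Entrez identifiers of 28689 were found in RefSeq, and no symbol was changed. Each of 17097 genes is represented by its probe set with the highest mean.

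All 6 comparisons of the 4 groups were fitted with limma 3.58.1 in R 4.3.3 on 13 arrays, with Benjamini-Hochberg adjustment over all genes. Their number limits the precision. Sorted arrays come from sorts of pooled mice. The paper counts the villus arrays, like those of the other groups, as biological replicates. It does not spell out whether each villus array came from separate animals. The p-values therefore measure the spread between these samples, which may in part be technical. A gene whose group mean was not above the receptor level has a bound, "at least", computed against that level, and no fold where both groups were below it. Residuals of GFP_High and GFP_Low arrays with the same title code correlated at 0.291, 0.451 and 0.320, each above 0.1. The sort, as read from that code, was therefore also fitted as a block.

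Named genes are the 8 genes, the 3 genes most correlated with each, Lgr5, defining markers, and of 20 gene lists (178 entries, the 8 genes not counted) up to 3 genes with the largest difference among those called and those that go against the others. Genes of a list without a probe set naming them alone were not analysed here. Genes and lists were chosen with earlier results of these data known. The fits were tested on simulated data. Alternatives were quantile normalization, 16 added before log2, the mean of or all probe sets of a gene, a filter at the receptor level on 3 arrays (11949 genes), fits of the 2 groups alone, fixed and random sort blocks, a trended robust prior, array weights, the methods' t-test, and each array left out. Python 3.11.15 and matplotlib 3.10.9 were used for tables and figures.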

Additional observations from a re-analysis of the deposited data

How the results depend on the processing

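Over the alternatives, 1136 of the values of single genes kept their direction and their side of the threshold, 55 lost the call, 15 gained it and 2 changed sign, both for differences that had not passed. Msi2 in hair follicle cells against GFP_High ranged from -0.0297 (without hair follicle 1) to 0.24 when arrays were left out in turn, and Tert in GFP_Low against GFP_High was -0.0301 without the 3 arrays with a contrary label field. That alternative, chosen after seeing the data, leaves 1 GFP_Low array. Its calls enter the totals above, some of them among those lost, and are not counted apart. The methods' t-test, on the same values, called 3 of the 8 for GFP_Low against GFP_High after Benjamini-Hochberg (1595 of all genes in place of 2853), and for Villus against GFP_Low 5 at the methods' threshold (4795 of all genes in place of 7202) and 5 after adjustment. Over all genes it also called 4750 in place of 7900 for hair follicle cells against GFP_Low at that threshold. Leaving out 1 array gave 4 to 7 calls for GFP_Low against GFP_High, 6 to 7 for Villus against GFP_High, 6 to 8 for Villus against GFP_Low, 5 to 6, 5 to 7 and 7 to 8 for hair follicle cells against GFP_High, GFP_Low and Villus. The replicate block by sort called 7 of the 8 for GFP_Low against GFP_High, the added gene being Clu (-1.36), and changed no other call of the 8. Read for the lists after seeing the data, the block called 4 in place of 0 of 7 proliferation genes. It called fewer in other lists, 7 in place of 8 Polycomb genes and 5 in place of 6 telomerase and telomere cap genes. These block calls give GFP_High 2 no weight, and the share of all genes called under the block is not given here. Adding 16 before log2 pulls low values together by construction: Msi1 in GFP_Low against GFP_High was then -2.02, and the mean of its probe sets gave -1.54, in place of -3.01. Low signal limits Tert, and Msi1 and Prom1 where they were not above the receptor level. Causes of the other changes were not tested.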
